A study of Gallus gallus with 4 samples.

Results

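The genes described here encode ion channels and parts of the excitation-contraction coupling machinery in chicken breast muscle. They were chosen by name: calcium channel subunits (CACN), ryanodine receptors (RYR), potassium (KCN), sodium (SCN) and chloride (CLCN) channel families, calcium and sodium pumps, FKBP1 proteins, calsequestrins, triadin, junctophilins and acetylcholine receptors. A gene had to lie on a placed chromosome and average at least 1 FPKM (the fragments mapped to a gene, scaled by its length and by the depth of the library) over the 4 libraries. Of 17934 gene IDs, 65 matched a name and 24 of these reached 1 FPKM. Those 24 are the members, out of 10669 placed genes at that level. No ATP2A, ATP2B, ATP1A, ATP1B, FKBP1, CASQ or CHRN symbol was among the matches.

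Breast muscle was taken from female birds of the fast-growing Recessive White Rocks (WRR) and the slow-growing Xing Hua Chicken (XH) at 7 weeks of age. From each breed, 3 birds from the high and 3 from the low tail of body weight were pooled, which gave 1 library each for WRRh, WRRl, XHh and XHl. Mean body weights were 1064.0 ± 11.1 g, 695.0 ± 24.4 g, 305.8 ± 23.3 g and 207.6 ± 11.1 g, where the labels do not define the error. Each condition was 1 pool, no agent was given, and the breeds came from different suppliers, so breed and supplier cannot be told apart.

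In skeletal muscle an action potential spreads over the fibre surface and into the transverse tubules through sodium channels, and chloride and potassium channels return the membrane to rest. In the tubule the L-type calcium channel senses the voltage and opens ryanodine receptors in the facing sarcoplasmic reticulum, which releases the calcium that starts contraction. Junctophilins hold the tubule and the reticulum together, and triadin links the ryanodine receptor to the calcium store. Avian skeletal muscle uses a pair of ryanodine receptor types, of which RYR3 is one.

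No member passed the main test between breeds or between weight classes. The result for breed depended on the filter. At a mean of at least 5 FPKM, 2 of 12 members passed, beside 1007 of 7507 genes. Among genes above 0 in all 4 libraries, 6 of 24 members passed, beside 1807 of 10356 genes. The highest XH levels relative to WRR were found in the junction genes JPH1, TRDN and RYR3 and in the potassium channels KCNQ1 and KCNQ5. The calcium channel subunit CACNG1, the sodium channel subunits SCN2B and SCN4B, and the potassium channels KCNT1 and KCND3 were lower in XH. For each of these 10 genes both XH libraries lay on one side of both WRR libraries. Of all genes, 15.0% were higher and 51.8% lower in XH in this way. The 10 were named because of these same values, so their separation adds no support. Between weight classes the members moved less, and no member was at least 2-fold apart within a breed.

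Levels of the members ran from 0.636 FPKM (KCND3 in XHl) to 999 FPKM (CACNG1 in WRRh). In all 4 libraries the first 7 members stood in the same order, which was CACNG1, JPH1, TRDN, RYR3, CACNA2D1, JPH3 and SCN4B. The members together summed to 1758 FPKM in WRRh and 1551 in WRRl, against 1602 in XHh and 1523 in XHl, or 0.243% to 0.295% of all FPKM in a library. No member was listed at 0 anywhere. Only KCND3, KCNC1 and KCNMB2 were under 1 FPKM in some library. KCND3 and KCNC1 were so in both XH libraries, and reached the required mean only through WRR.

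**Figure D1:**
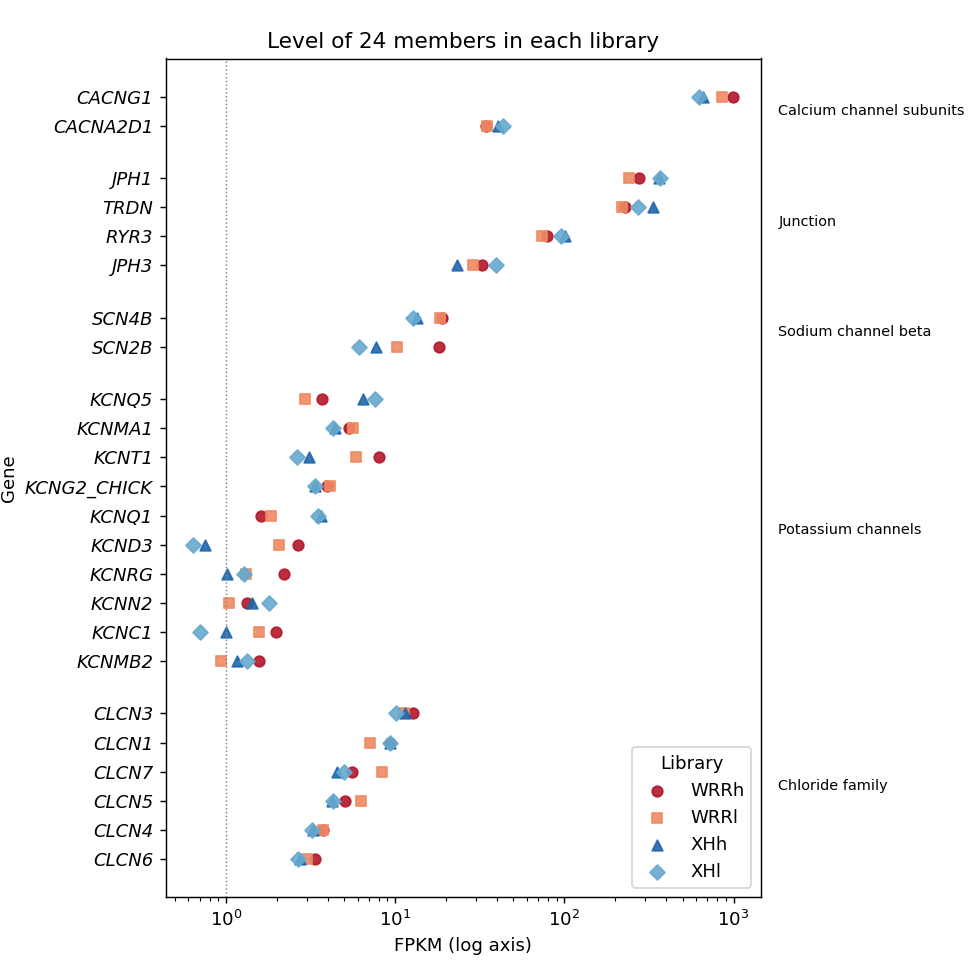
Level of each member (rows, grouped by role) in FPKM on a log axis, with 1 point for each of the 4 libraries and a dotted line at 1 FPKM. CACNG1 and the junction genes lay far above the potassium channels, which all lay below 8 FPKM.

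The skeletal muscle label was checked against 5 placed fibre markers, which summed to 19730 to 23970 FPKM per library. Leukocyte markers summed to 213 FPKM in WRRh and 438 in WRRl, against 64.7 in XHh and 94.2 in XHl. All 7 were lower in both XH libraries than in either WRR library, as were 51.8% of all genes. Fibroblast markers summed to 1932, 2420, 1174 and 944 FPKM, with all 5 lower in XH in the same way. The nerve and Schwann cell list, with 5 placed genes, summed to 90.2 to 124 FPKM, and the smooth muscle list, with 4, to 82.7 to 179 FPKM. Relative depth could be read from the steps between low values: WRRl held 0.841 times and XHh 0.859 times the fragments of WRRh, while XHl held 1.77 times those of XHh. The FPKM values do not hold the absolute depth.

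Breed was tested with limma on log2(FPKM + 1), with breed and weight class as factors over the 4 libraries and Benjamini-Hochberg adjustment over 10669 genes. This fit passed 0 of 24 members, where 4.75% of all genes were called (1.22% higher and 3.53% lower in XH). Without adjustment 10 members had p under 0.05, which is 41.7% of them against 34.3% of all genes. They were 5 higher in XH (6.23% of all genes) and 5 lower (28.1%), the genes named above. Both XH libraries were above both WRR libraries for 7 members (29.2%, against 15.0% of all genes) and below them for 13 members (54.2%, against 51.8%). The 13 include KCND3 and KCNC1, which reached the required mean only through WRR. The median breed change of the members was -0.16 on the log2 scale, beside -0.25 for all genes, and 14 of 24 members lay above the latter.

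The level of all genes in XH depended on the scaling of the libraries. When the FPKM values were first scaled by median-of-ratios factors, the median of all genes moved from -0.25 to -0.02, and calls over all genes changed from 130 higher and 377 lower in XH to 174 higher and 112 lower. The median of the members became 0.036, and 9 members were then higher without overlap (31.7% of all genes) and 6 lower (32.4%). The 10 genes named above as higher or lower in XH kept their direction under this scaling.

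**Figure D2:**
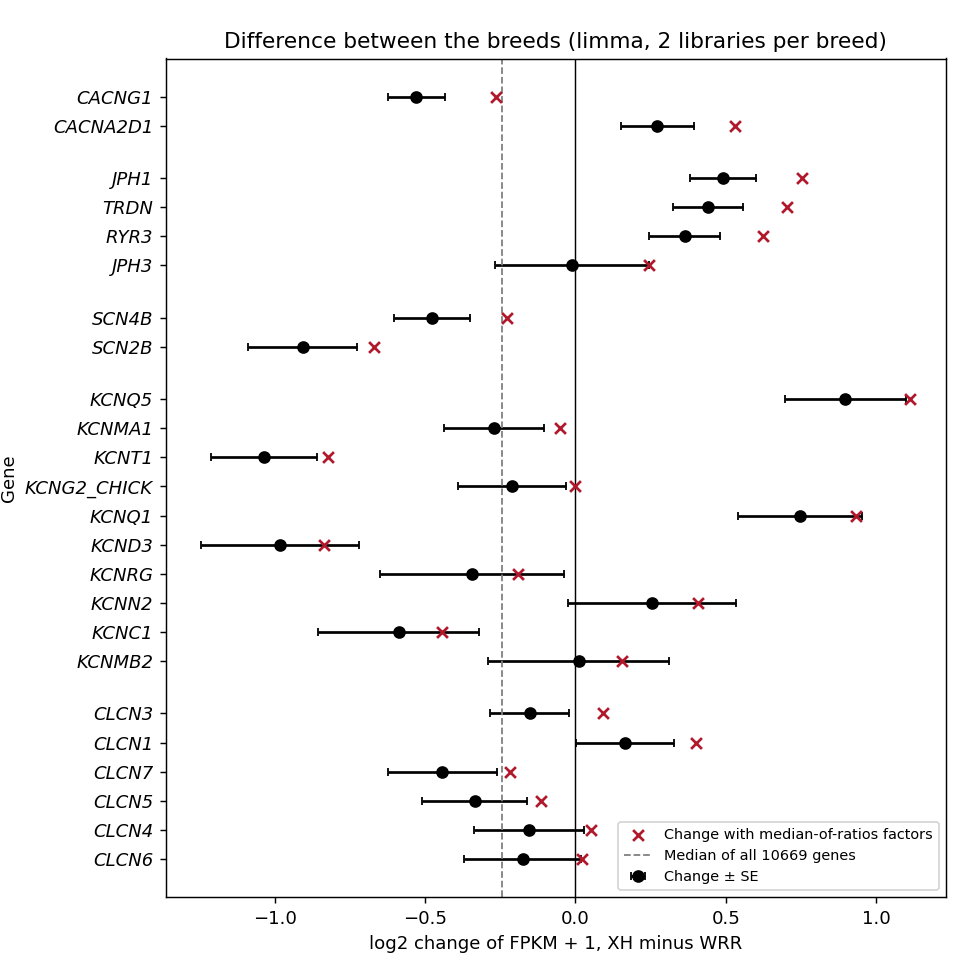
Breed change of each member as the log2 change of FPKM + 1, XH minus WRR, with its limma SE (black, 2 libraries per breed), and the same change with median-of-ratios factors (crosses). The dashed line is the median of all 10669 genes at -0.25. The junction genes other than JPH3, KCNQ1 and KCNQ5 lay to the right of 0 and CACNG1, the sodium channel subunits, KCNT1 and KCND3 to the left under both scalings.

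Among calcium channel subunits, CACNG1 (ENSGALG00000003900, chromosome 18, 7237668 to 7244031) was the most abundant member. It encodes the gamma-1 subunit, which in mammals belongs to the skeletal muscle L-type channel. Its level was 999 FPKM in WRRh and 858 in WRRl, against 657 in XHh and 627 in XHl. Both XH pools lay below both WRR pools, and the weight classes differed less than the breeds. The breed change was -0.53 ± 0.10 (SE, limma, 2 libraries per breed), with an adjusted p of 0.0575. With median-of-ratios factors it was smaller, at -0.27, and limma gave an adjusted p of 0.148.

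CACNA2D1 (ENSGALG00000008486, chromosome 1, 10956495 to 11365367) encodes the alpha2delta-1 subunit, which helps to bring the channel to the surface. It measured 34.2 FPKM in WRRh and 35.0 in WRRl, against 40.7 in XHh and 43.4 in XHl. The breeds did not overlap, but the change of 0.27 ± 0.12 (SE) had an adjusted p of 0.203 in limma. The pore-forming subunit carries a protein entry name, CAC1S_CHICK, and so fell outside the naming rule. It was 97.9 FPKM in WRRh and 89.5 in WRRl, against 107 in XHh and 123 in XHl, and its breed change of 0.29 ± 0.14 (SE, limma) had an adjusted p of 0.227. The pore and alpha2delta-1 transcripts were thus somewhat higher in XH while that of gamma-1 was lower.

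The ratio of 2 genes within a library is not altered by a factor applied to the whole library. CACNG1 stood at 10.2 times CAC1S_CHICK in WRRh and 9.58 times in WRRl, but at 6.13 times in XHh and 5.10 times in XHl. CACNA2D1 stayed at 0.349, 0.391, 0.379 and 0.353 times CAC1S_CHICK, where the breeds overlapped. These ratios were formed after the values were seen and were given no test.

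The junction genes comprised RYR3, TRDN, JPH1 and JPH3, and 3 of them were higher in both XH libraries, as were 15.0% of all genes. Their median breed change was 0.40, and all 4 lay above the median of all genes. JPH1 (ENSGALG00000015653, chromosome 2, 122905097 to 122984661) encodes junctophilin 1, the main junctophilin of mammalian skeletal muscle. It measured 276 FPKM in WRRh and 242 in WRRl, against 361 in XHh and 365 in XHl. The XH pools were nearly equal and lay above both WRR pools. Its breed change was 0.49 ± 0.11 (SE, limma), with an adjusted p of 0.0736.

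TRDN (ENSGALG00000014848, chromosome 3, 63403528 to 63554456) encodes triadin, an anchor of the junctional reticulum membrane. Its level was 228 FPKM in WRRh and 218 in WRRl, against 336 in XHh and 273 in XHl. XHh was the highest pool, and the difference was larger between heavy birds (log2 ratio 0.56) than between light birds (0.32). Over both weight classes the breed change was 0.44 ± 0.12 (SE, limma, adjusted p = 0.0908).

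RYR3 (ENSGALG00000009705, chromosome 5, 32471903 to 32658515) encodes a calcium release channel of the reticulum. It measured 78.9 FPKM in WRRh and 73.6 in WRRl, against 102 in XHh and 95.1 in XHl. The log2 ratio of XH over WRR was alike in heavy (0.36) and light birds (0.37), and the breed change of 0.36 ± 0.12 (SE, limma) had an adjusted p of 0.123. The cardiac type receptor RYR2 matched the naming rule but was at 0.0761 FPKM or less in every library, and RYR1 matched no gene ID by name and was not analysed here.

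The following ratios were formed after the values were seen and were given no test. CACNG1 was lower in XH and JPH1, TRDN and RYR3 were higher, so their ratios to CACNG1 had to differ between breeds. JPH1 was 0.276 times CACNG1 in WRRh and 0.281 times in WRRl, compared with 0.549 times in XHh and 0.583 times in XHl. TRDN was 0.228, 0.254, 0.512 and 0.436 times CACNG1, and RYR3 0.0790, 0.0858, 0.155 and 0.152 times. Each of these 3 ratios was higher in both XH pools. JPH1 over RYR3 was also higher in both XH pools, but by less, at 3.50, 3.28, 3.55 and 3.84. JPH1 over CAC1S_CHICK was higher in both as well, at 2.82, 2.70, 3.37 and 2.97. TRDN over RYR3 was 2.89, 2.97, 3.31 and 2.87, and RYR3 over CAC1S_CHICK was 0.806, 0.822, 0.947 and 0.775, with overlapping breeds in both.

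JPH3 (ENSGALG00000005791, chromosome 11, 19836338 to 19879378) encodes a junctophilin known from the mammalian brain. It behaved differently, with 32.5 FPKM in WRRh and 28.9 in WRRl, against 23.3 in XHh and 39.4 in XHl. XHh was the lowest and XHl the highest pool, so the breeds overlapped. The breed change was -0.01 ± 0.26 (SE, limma, adjusted p = 0.978) and changed sign with the scaling and with the library left out. JPH1 stood at 8.50 times JPH3 in WRRh, 8.35 times in WRRl, 15.5 times in XHh and 9.26 times in XHl.

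Both sodium channel members encode auxiliary beta subunits and lie 7770 bases apart on chromosome 24. SCN4B (ENSGALG00000007409, 5560740 to 5562107) measured 18.9 FPKM in WRRh and 18.4 in WRRl, against 13.5 in XHh and 12.7 in XHl. SCN2B (ENSGALG00000021272, 5569877 to 5573227) measured 18.3 FPKM in WRRh and 10.2 in WRRl, against 7.70 in XHh and 6.08 in XHl. Both were lower in each XH pool than in each WRR pool. In limma the breed change was -0.48 ± 0.13 (SE, adjusted p = 0.0926) for SCN4B and -0.91 ± 0.18 (SE, adjusted p = 0.0649) for SCN2B.

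SCN2B also stood out by its level in WRRh. SCN4B was 1.04 times SCN2B in WRRh, but 1.79, 1.76 and 2.09 times in WRRl, XHh and XHl. The log2 ratio of SCN2B, XH over WRR, was -1.15 between the heavy pools and -0.67 between the light pools. The pore-forming SCN4A matched no gene ID by name and was not analysed here.

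The potassium channel group had 10 members, all below 8 FPKM, of which 4 had a breed change above 0 and 6 below. KCNQ5 (ENSGALG00000015932, chromosome 3, 84308194 to 84386027) encodes a voltage-gated channel that carries slow M-type currents in mammals. It was 3.70 FPKM in WRRh and 2.93 in WRRl, against 6.41 in XHh and 7.64 in XHl. Both XH pools were higher, with a log2 ratio of 1.13 between the light birds. The fit gave a breed change of 0.90 ± 0.20 (SE, limma, adjusted p = 0.0737).

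Its relative KCNQ1 (ENSGALG00000006472, chromosome 5, 14329938 to 14649812), known for the slow repolarising current of the mammalian heart, measured 1.61 FPKM in WRRh and 1.84 in WRRl, against 3.64 in XHh and 3.49 in XHl. The breeds did not overlap, and the weight classes were close. Its breed change was 0.75 ± 0.21 (SE, limma, adjusted p = 0.0983). KCNQ3, of the same subfamily, fell just short of the level required, with a mean of 0.834 FPKM.

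KCNT1 (ENSGALG00000001645, chromosome 17, 8907112 to 8935600) encodes a potassium channel opened by intracellular sodium. It measured 7.99 FPKM in WRRh and 5.89 in WRRl, against 3.07 in XHh and 2.62 in XHl. Both XH pools lay well below both WRR pools, with a log2 ratio of -1.14 between the heavy birds. The breed change was -1.04 ± 0.18 (SE, limma), with an adjusted p of 0.0566, the lowest of the 24 members.

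KCND3 (ENSGALG00000001512, chromosome 26, 3124785 to 3214381) encodes a channel of the fast transient A-type current. It was 2.65 FPKM in WRRh and 2.07 in WRRl, against 0.755 in XHh and 0.636 in XHl. The breeds did not overlap, and the log2 ratio between the heavy birds was -1.06. Both XH values were under 1 FPKM. KCND3 thus reached the required mean only through WRR, and its separation adds no support. In limma the gene had a breed change of -0.98 ± 0.26 (SE, adjusted p = 0.0931). Its locus was shared with an unnamed gene model at 2.79, 0.694, 0 and 0.191 FPKM, so the split of reads between the pair is uncertain.

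The opposite direction of these channels was plain in their ratios within a library. KCNQ5 was 0.463 times KCNT1 in WRRh and 0.498 times in WRRl, but 2.09 times in XHh and 2.92 times in XHl. KCNQ1 was 0.607 and 0.890 times KCND3 in the WRR pools and 4.83 and 5.49 times in the XH pools, where KCND3 was under 1 FPKM. In each pair, the gene that was lower in WRR was the higher one in XH. These pairs were chosen after the values were seen and were given no test.

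**Figure D3:**
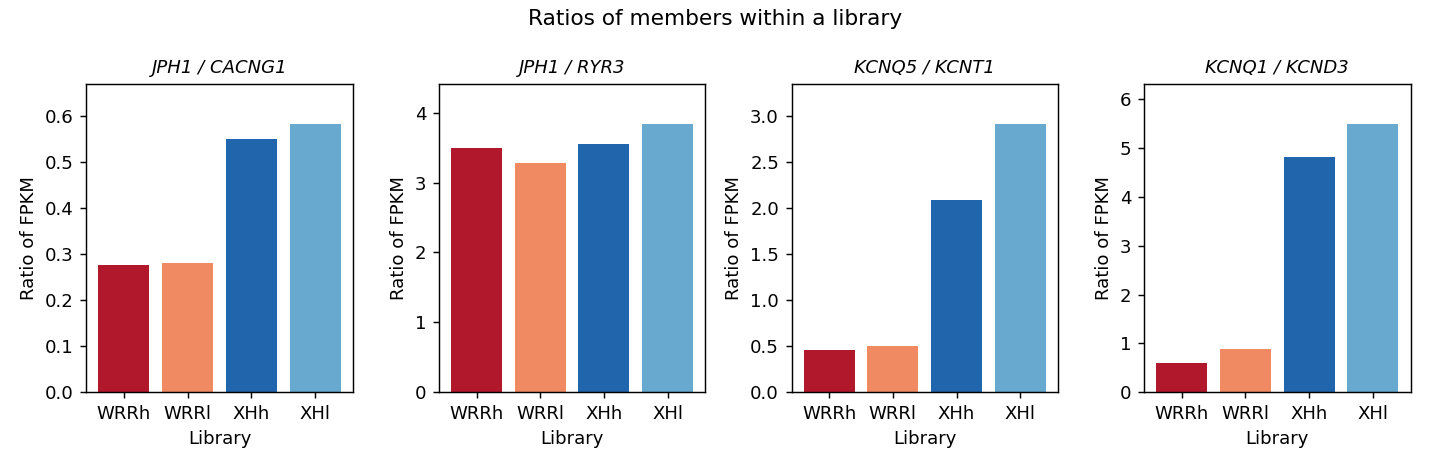
Ratio of FPKM of 2 members within each of the 4 libraries, as bars from 0, for JPH1 over CACNG1, JPH1 over RYR3, KCNQ5 over KCNT1 and KCNQ1 over KCND3. JPH1 over RYR3 stayed between 3.28 and 3.84. From the lowest to the highest library JPH1 over CACNG1 went from 0.276 to 0.583 and KCNQ5 over KCNT1 from 0.463 to 2.92. KCNQ1 over KCND3 went from 0.607 to 5.49. Both XH libraries lay above both WRR libraries in every ratio shown.

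The other 6 potassium members had breed changes between -0.59 and 0.26, and limma gave adjusted p from 0.210 upward. KCNC1, a fast Kv3 channel, was the lowest of these, at 1.99 FPKM in WRRh and 1.57 in WRRl, against 0.997 in XHh and 0.698 in XHl. KCNMA1, the pore of the large conductance calcium-activated channel, measured 5.30, 5.66, 4.43 and 4.30 FPKM. KCNG2_CHICK, which by its name is a modifying subunit that forms no channel on its own, measured 3.95, 4.12, 3.35 and 3.35 FPKM. These 3, and KCNRG below, were lower in both XH pools than in both WRR pools, as were 51.8% of all genes. With median-of-ratios factors only KCNC1 of them stayed without overlap. The changes were then -0.442 for KCNC1, -0.052 for KCNMA1, -0.003 for KCNG2_CHICK and -0.192 for KCNRG. KCNC1 was under 1 FPKM in both XH pools and reached the required mean only through WRR.

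KCNN2, a small conductance calcium-activated channel, was 1.33 FPKM in WRRh and 1.04 in WRRl, against 1.42 in XHh and 1.80 in XHl. KCNMB2, an auxiliary subunit of the large conductance channel, had the lowest mean of all members, 1.25 FPKM, and its breeds overlapped. KCNRG, a soluble regulator of potassium channels and not a channel itself, was 2.21 FPKM in WRRh and 1.02 to 1.31 FPKM elsewhere. At such levels few fragments stand behind a value, and no interval could be given without the read counts.

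The CLCN family had 6 members with a median breed change of -0.16, and none differed 2-fold in any contrast. CLCN1 (ENSGALG00000014695, chromosome 1, 80748491 to 80777776), the chloride channel of the muscle fibre surface, was the only one with a breed change above 0. It measured 9.36 FPKM in WRRh and 7.14 in WRRl, against 9.29 in XHh and 9.30 in XHl. WRRl was low and the other 3 pools were nearly equal. The breed change of 0.17 ± 0.16 (SE) had an adjusted p of 0.508 in limma, and it became -0.01 without WRRl.

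The other 5 CLCN genes encode exchangers of endosomes and lysosomes, and their breed changes ran from -0.44 to -0.15. CLCN3 was the most abundant, at 12.8 FPKM in WRRh and 11.2 in WRRl, against 11.4 in XHh and 10.1 in XHl. CLCN7, the lysosomal member, was 5.59 FPKM in WRRh and 8.31 in WRRl, against 4.53 in XHh and 4.997 in XHl. CLCN5 was 5.05, 6.24, 4.22 and 4.27 FPKM. CLCN7 and CLCN5 were highest in WRRl, the library with the highest leukocyte and fibroblast markers, but the part of those cells in the result was not tested. In a bulk sample, fewer cells of a type and less RNA per cell cannot be told apart. With quantile normalization CLCN3, CLCN4, CLCN5 and CLCN6 all had a breed change above 0, so the direction of these genes depended on the scaling.

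Within breeds, WRRh vs. WRRl and XHh vs. XHl each had 0 members at least 2-fold apart. Of all genes, 4.0% were so in WRRh vs. WRRl (3.27% higher and 0.735% lower in WRRl) and 1.24% in XHh vs. XHl (0.749% higher and 0.49% lower in XHl). Over both breeds limma called 0 members for weight class, where 0.0562% of all genes were called (0.0375% higher and 0.0187% lower in light birds). SCN2B alone, lower in light birds, had an unadjusted p under 0.05, as had 5.8% of all genes (4.06% higher and 1.74% lower). Its change, low minus high, was -0.54 ± 0.18 (SE, limma, 2 libraries per class, adjusted p = 0.809). Without WRRh it was 0.04, but that fit held weight class alone, so the breed difference entered it. Within breeds the log2 ratio of SCN2B, light over heavy, was -0.78 in WRR and -0.30 in XH. The median change of the members was -0.08, beside 0.06 for all genes, and their changes ran from -0.54 in SCN2B to 0.31 in CLCN7.

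Between breeds within a weight class, WRRh vs. XHh had 3 members at least 2-fold apart, all lower in XHh (KCND3, KCNT1 and SCN2B). That is 12.5% of the members, beside 9.22% of all genes in either direction (1.89% higher and 7.33% lower). WRRl vs. XHl had 1 such member, KCNQ5, which was higher in XHl, beside 13.9% of all genes in either direction and 1.83% higher. The 2-fold members of WRRh vs. XHh depended on the scaling: with median-of-ratios factors 0 were lower and 1 was higher (KCNQ1), and with quantile normalization 0 were lower and 2 higher (KCNQ1 and KCNQ5). With a pseudocount of 5 no member was 2-fold apart in either contrast. These contrasts hold 1 library on each side and have no replicate check. They share no library with each other, and both enter the breed test above.

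**Figure D4:**
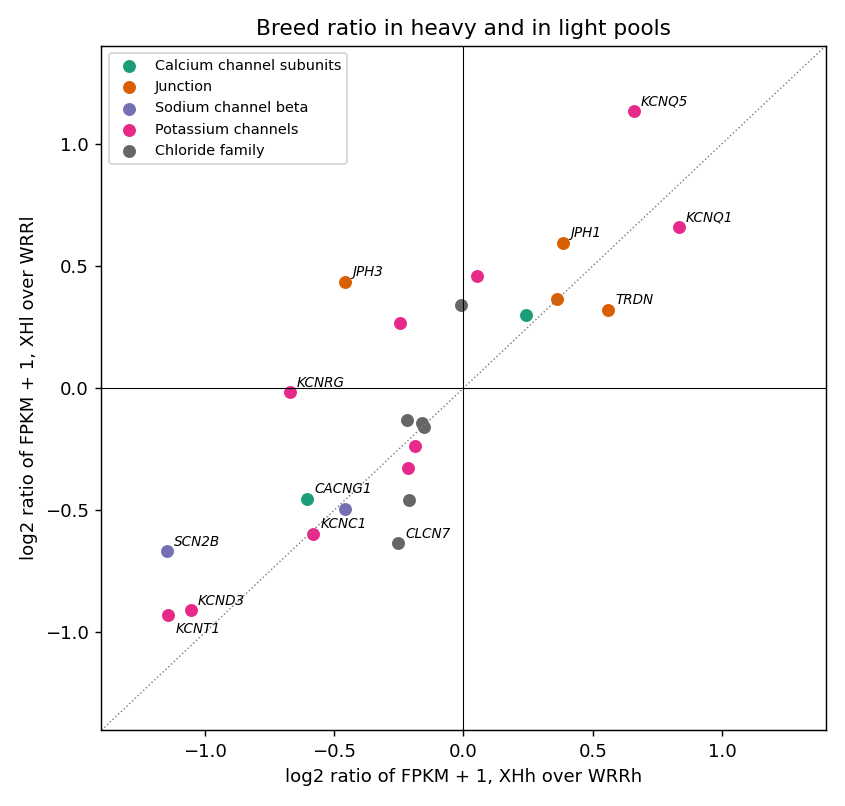
Log2 ratio of FPKM + 1 of XHh over WRRh (x axis) against XHl over WRRl (y axis) for the 24 members, coloured by role, with a dotted line of equal ratios. KCNQ5, KCNQ1, JPH1 and TRDN lay above 0 on both axes, KCNT1, KCND3, SCN2B and CACNG1 below 0 on both, and JPH3 at -0.46 and 0.43.

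The 41 matches below 1 FPKM were 29 KCN, 9 CACN and 2 SCN genes and RYR2. Of these, 9 were listed at 0 in all 4 libraries and 32 were above 0 in some library. Just above the threshold stood KCNMB2 and KCNC1, with means of 1.25 and 1.31 FPKM. Of 28 symbols listed for the coupling machinery and the excitable membrane, 6 were members and 22 matched no gene ID by symbol. Among the latter, CACNA1S and ATP2A2 are described under the protein entry names CAC1S_CHICK and AT2A2_CHICK, while ATP2A1, CASQ1, KCNJ2 and CHRNA1, for example, were not analysed here. FKBP1B is also among the 22, although the paper lists it as differentially expressed. No gene ID carried that symbol here, so its level in each library could not be given beside the fold change that the paper reports.

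In all, 5 genes of the same families carried protein entry names, with CAC1S_CHICK among them, and were added after the names and values had been seen. AT1B4_CHICK (ENSGALG00000008593, chromosome 4, 16570194 to 16602074), by its name a beta-4 chain of the sodium and potassium pump family, rose in XH. It measured 195 FPKM in WRRh and 209 in WRRl, against 431 in XHh and 615 in XHl. Both XH pools were over 2-fold above both WRR pools (log2 ratios 1.14 and 1.55 in heavy and light birds). The breed change was 1.34 ± 0.14 (SE, limma), with an adjusted p of 0.0479. The limma call was lost without any 1 of the libraries, with adjusted p of 0.0559 without WRRh, 0.0851 without WRRl, 0.236 without XHh and 0.232 without XHl. Its locus is shared with FAM70A, listed at 104, 75.8, 182 and 201 FPKM, so reads may be split between the pair.

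AT2A2_CHICK, by its name the SERCA2 calcium pump of slow and cardiac muscle, was 12.6 FPKM in WRRh and 14.5 in WRRl, against 7.33 in XHh and 7.32 in XHl. Both XH pools were lower, and the breed change of -0.80 ± 0.14 (SE, limma) had an adjusted p of 0.0573. The 7 placed slow or cardiac muscle markers were divided. In both XH libraries 3 were higher and 3 lower than in either WRR library, beside 15.0% and 51.8% of all genes. TNNC1_CHICK, by its name the slow and cardiac troponin C, was lower, at 8217, 8100, 7354 and 4884 FPKM. Its level in WRRh was near that of TNNT3_CHICK of the fibre marker list (7921 FPKM) and far above the other slow or cardiac markers. Whether this entry marks slow fibres here was not tested. TNNI1 was also lower, at 3.16, 9.66, 1.43 and 0.930 FPKM. MYL2 was higher, at 4.88, 6.12, 31.8 and 30.7 FPKM, as was MYBPC3, at 2.09, 6.08, 7.83 and 7.63 FPKM. TNNC2_CHICK, of the fibre marker list, was listed at 0 in every library. AT1B3_CHICK, another pump beta chain, was 53.4, 69.0, 42.8 and 49.7 FPKM, and ACHA4_CHICK, a neuronal type acetylcholine receptor subunit, was 1.46 to 2.58 FPKM.

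A wider list of 53 genes of muscle calcium handling and the neuromuscular junction had 26 matches, of which 25 were tested. Limma called 1 of them lower in XH, TMEM38B, and 0 higher, beside 1.22% higher and 3.53% lower over all genes. At an unadjusted p under 0.05 stood 12 of them (5 higher and 7 lower), beside 34.3% of all genes (6.23% higher and 28.1% lower). The median breed change of these genes was 0.04, beside -0.25 for all genes, and 13 of 25 lay above 0, as did 3018 of the 10669 genes. Those above 0 include JSRP1 (2.83) and those below 0 include PLN (-2.21). Both changes rest on listed zeros that may be failed estimates, as described below. For weight class limma called 0 of them.

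TMEM38B (ENSGALG00000015447, chromosome Z, 53989414 to 54002217) encodes TRIC-B, a cation channel of the reticulum membrane thought to carry counter-current during calcium release. It fell in XH, with 27.2 FPKM in WRRh and 23.9 in WRRl, against 7.55 in XHh and 9.13 in XHl. The breeds were far apart in both heavy and light birds (log2 ratios -1.72 and -1.30), and the breed change was -1.51 ± 0.17 (SE, limma, adjusted p = 0.0483). In limma its adjusted p was 0.0627 without WRRl, 0.236 without XHh and 0.232 without XHl.

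The sister gene TMEM38A, which encodes the TRIC-A form abundant in mouse muscle, was taken up after its values were seen. It measured 223 FPKM in WRRh and 214 in WRRl, against 351 in XHh and 337 in XHl. Its breed change of 0.65 ± 0.10 (SE, limma) had an adjusted p of 0.0512. TMEM38A was thus 8.19 and 8.94 times TMEM38B in the WRR pools, and 46.5 and 36.9 times in the XH pools.

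ASPH, whose locus in mammals also encodes the junctional protein junctin, was likewise taken up after its values were seen. It was 235 FPKM in WRRh and 195 in WRRl, against 333 in XHh and 298 in XHl, with a breed change of 0.56 ± 0.10 (SE, limma, adjusted p = 0.0596). Like JPH1, TRDN and RYR3, it was higher in both XH pools than in both WRR pools. Of the 25 genes tested in the wider list, 8 were higher in this way and 11 lower. Over all genes the shares were 15.0% and 51.8%.

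JSRP1, a junctional reticulum protein, was 189 FPKM in WRRh, 84.7 in XHh and 112 in XHl but was listed at 0 in WRRl. The deposited locus of JSRP1 holds 6 gene models, all 6 listed at 0 in WRRl and above 0 in the other 3 libraries. PLN, phospholamban, was 20.5 FPKM in WRRh and listed at 0 in the others, also at a locus that overlaps other models. No fold between 2 libraries is given for JSRP1 or PLN, since a listed 0 may be a failed estimate. The breed changes given above for both genes rest on these zeros. For JSRP1 the WRRh value lay above both XH values, opposite to the sign of its breed change.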

How the data were processed

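Breast muscle RNA of 12 female birds was pooled into 4 mRNA libraries of 3 birds each. The authors removed low-quality reads, aligned the rest with TopHat, expressed gene levels as FPKM and ran Cuffdiff on library pairs; the submitters' processing notes name galGal4. The deposited FPKM values were used, from 4 tables, and their own fold changes, p-values and q-values were not used. Each library is in 2 tables, and 69 values listed at 0 in only 1 of them were taken from the other. Positions are those of the deposited loci, which can span overlapping gene models; their genome build is not named in the tables. Of the gene IDs, 4955 carry no symbol and 3622 a protein entry name. No sequences were used here. Some results on genes below the level required are not reported here.

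Genes on placed chromosomes whose mean reached 1 FPKM were analysed on log2(FPKM + 1), which understates changes of low genes. limma 3.58.1 (R 4.3.3; trend and robust moderation) fitted breed and weight class over the 4 libraries, with 1 residual degree of freedom and Benjamini-Hochberg adjustment at 0.05. It was checked on simulated data. Since each library is 1 pool, p-values do not measure the spread between birds or between replicate pools. The residual of a gene is how far its breed difference varied between the weight classes, moderated by the residuals of other genes. Contrasts of 2 libraries were described by size, with 2-fold meaning both values above 0 and a log2 ratio of at least 1 in size. The members, gene lists and tests were chosen with earlier results of these data known. Members were given with each library's value where called, where 2-fold apart in a contrast, or where they belong to the coupling machinery or excitable membrane; genes of the wider list were named where called or 2-fold apart in 1 direction in both contrasts. JPH3, SCN4B, KCNQ1, the other potassium and chloride members, the marker genes, TMEM38A, ASPH, JSRP1 and PLN were described in addition after their values were seen. Alternatives were other pseudocounts, filters, scalings and models, and leaving out each library. Fits with a library left out held only the factor tested, so the other factor was not adjusted for. FPKM keeps no fragment counts, so no counting interval is given.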

Additional observations from a re-analysis of the deposited data

Results flagged for a closer look

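For 4 members the light and heavy pools differed in opposite directions in the 2 breeds by at least 1.1-fold each. JPH3, a junctophilin, had a log2 ratio of -0.16 between WRRl and WRRh, and of 0.73 between XHl and XHh. For KCNQ5, a slow voltage-gated potassium channel, the ratios were -0.26 and 0.22. KCNN2, a calcium-activated potassium channel, gave -0.19 and 0.21. KCNRG, a regulator of potassium channels, gave -0.48 and 0.18. Each ratio rests on 1 library per condition, and the difference between breeds was not tested. The share of all genes that differed in this way was not counted, so no excess among the members can be read from this count. KCNN2 lay close to 1 FPKM in WRRl and KCNRG in XHh, so few fragments stand behind these values.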

How the results depend on the processing

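No paired analysis was possible because each group had 1 library and the labels give no replicate numbers. Every fit with a library left out also dropped the other factor, so its counts mix the effects of both omissions. Genes called for breed by limma numbered 507. They became 9 with a pseudocount of 5, 11 without the filter, 1007 at a mean of at least 5 FPKM, 286 with median-of-ratios factors, 14 with quantile normalization, 1807 among genes above 0 in every library, 0 without trend and robust moderation (3472 at an unadjusted p under 0.05), 766 with breed as the only factor, and 9 to 1210 with a library left out, where the lone library of a breed is assumed to vary like the others (1210 without WRRh, 86 without WRRl, 12 without XHh and 9 without XHl). The 6 genes called for weight class became 3 with a pseudocount of 5, 0 among genes above 0 in all libraries (705 at an unadjusted p under 0.05), 3 without trend and robust moderation, and 8 to 16 with a library left out.

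Members called for breed went from 0 to 2 of 12 tested at a mean of at least 5 FPKM (CACNG1 and SCN2B, lower). Beside them, 1007 of all 7507 genes tested were called. Among genes above 0 in all libraries, 6 of 24 members were called (CACNG1, JPH1, KCND3, KCNQ5, KCNT1 and SCN2B), beside 1807 of 10356 genes. With the 5 entry names, an alternative chosen after seeing the data, 1 was called. Members at least 2-fold apart in WRRh vs. XHh went from 3 to 0 with a pseudocount of 5, 1 at 5 FPKM, 1 with median-of-ratios factors (KCNQ1) and 2 with quantile normalization (KCNQ1 and KCNQ5); in WRRl vs. XHl from 1 to 3 with a pseudocount of 0.5, 0 with 5 and 2 with quantile normalization; the entry names gave 4 and 2. Genes 2-fold apart went from 419 to 131 (pseudocount 5) and 209 (5 FPKM) in WRRh vs. WRRl, from 129 to 201 (pseudocount 0.5), 38 and 74 in XHh vs. XHl, from 961 to 322 (pseudocount 5) in WRRh vs. XHh, and from 1450 to 596 and 852 in WRRl vs. XHl.

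Breed changes that turned sign ran from -0.371 (ACHA4_CHICK) to 0.165 (CLCN1) in the main fit. Some were as large as changes that kept their sign, such as 0.363 in RYR3. With median-of-ratios factors and with quantile normalization, JPH3 gave 0.243 and 0.124, CLCN3 0.091 and 0.124, CLCN4 0.051 and 0.295, and CLCN6 0.022 and 0.283. With quantile normalization alone, CLCN5 gave 0.10, KCNMA1 0.15, KCNG2_CHICK 0.24, KCNRG 0.13 and ACHA4_CHICK 0.082. With a library left out, JPH3 ranged from -0.379 to 0.354 (above 0 without WRRh or XHh), CLCN1 from -0.01 (without WRRl) to 0.339, and KCNMB2 from -0.197 (without WRRl) to 0.218, with -0.039 without XHl. For weight class, SCN2B ranged from -1.11 to 0.037 (without WRRh) and CLCN7 from -0.009 (without WRRl) to 0.626. These fits did not hold breed, so the breed difference entered these changes of sign. Between XHl and XHh alone the log2 ratio was -0.30 for SCN2B and 0.12 for CLCN7. AT1B4_CHICK lost its limma call under 8 of 13 alternatives (adjusted p 0.0159 to 0.236) and TMEM38B under 7 of 13 (0.0174 to 0.236). The cause was not tested.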
